A study of Homo sapiens with 21 samples.

Results

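The effect of an ISL1 vector was measured in PAX6 knockout cells by comparing 3 libraries with ISL1 and 3 libraries with a control vector, which together make 6 of the 21 libraries in the series. The 6 were chosen by genotype and vector alone, from the library names, and gene expression was compared across all 25884 genes that passed the filter on low counts.

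Cells of the human embryonic stem cell line H1 were differentiated towards pancreatic islets in 4 genotypes: unedited (WT), ISL1-/-, PAX6-/- and PDX1-/-. All cells were given a lentivirus on day 11, carrying either ISL1-IRES2-BFP (ISL1 and, from the same transcript, blue fluorescent protein) or only BFP; sorting on day 18 collected the BFP-positive cells for RNA. The PAX6-/- ISL1 group and the PAX6-/- BFP group therefore share the H1 background, the PAX6 genotype, the transduction day and the sort, and differ in the ISL1 insert. RNA was amplified with SMART-Seq v4. The labels do not say whether PAX6-/- is 1 clone, whether replicates come from separate differentiations or which part of PAX6 was altered, and sorting leaves only transduced cells in the sample. The design text calls the replicates biological. P-values of the main fit rest on the spread between replicates over all 21 libraries of the 8 groups, not the PAX6-/- libraries alone. In bulk RNA, fewer cells of a type and less RNA per cell cannot be told apart.

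ISL1 is a LIM homeodomain transcription factor that binds DNA motifs with a TAAT core together with the cofactor LDB1, and it acts in developing islets and in motor neurons. PAX6 is a paired-box transcription factor that islet cells need for hormone genes. In islets without PAX6, glucagon and insulin are known to fall and ghrelin, the hormone of epsilon cells, to rise.

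Depth did not separate the vectors. The 6 libraries held 46.2 to 56.2 M counts, within the 36.8 to 60.2 M of all 21. ISL1 replicate 3 stood apart from the other 5 libraries. Its median absolute difference from each of them was 0.82 to 0.96 on the log2 scale, against 0.24 to 0.44 for every other pair. Mitochondrial genes took 3.16% of its counts and 1.28 to 1.53% in the others, and its 100 most abundant genes took 22.3% against 14.2 to 16.0%. The difference varied with gene length, though not with length alone. Against ISL1 replicates 1 and 2, replicate 3 was higher by a median of 0.64 (log2) for genes with about 1649 exon bases and lower, at -0.70, for the 2589 genes with the longest exons (median 13343 bases). In BFP replicate 3, the same medians ranged only from -0.09 to 0.13. The 80 ribosomal protein genes, with a median of 2935 exon bases, were 1.35 higher in ISL1 replicate 3 (median, log2). Groups of genes with median exon lengths of 2396 and 3214 bases were only 0.42 and 0.16 higher. The part of replicate 3 was measured by leaving it out, and values are given both ways for most of the called genes described. Some uncalled genes, most values with the replicate block and most comparisons with other genotypes are given only with it included.

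**Figure D1:**
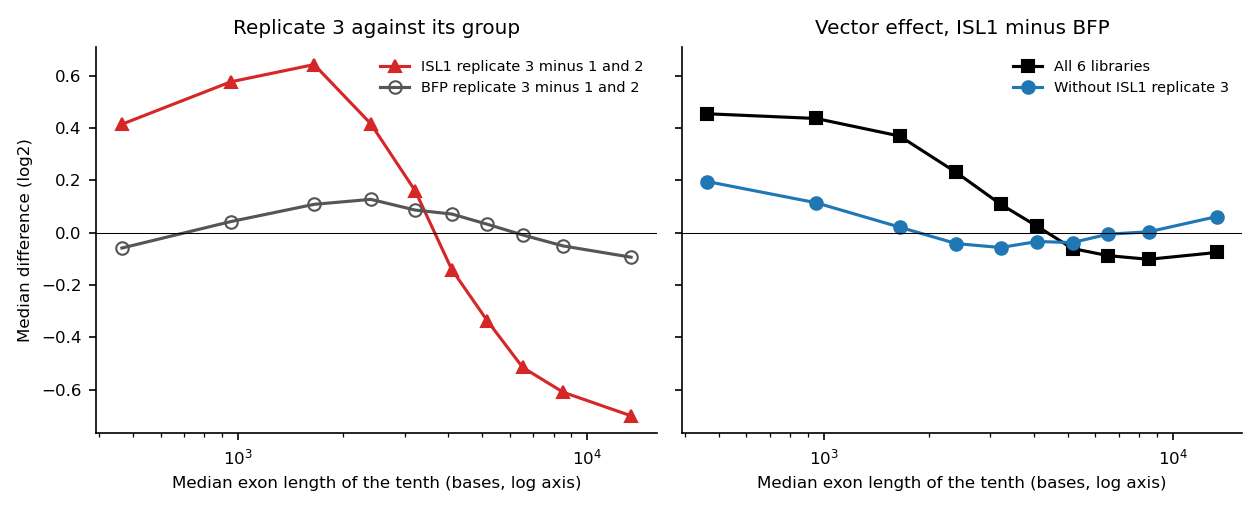
Median log2 difference (vertical axis) against the median exon length of 10 equal groups of the 25884 genes by length (horizontal axis, log scale). On the left, ISL1 replicate 3 minus the other ISL1 libraries is at 0.41 for the shortest genes, 0.64 in the third group and -0.70 for the longest, while BFP replicate 3 stays between -0.09 and 0.13; on the right, the vector effect falls from 0.45 to -0.10 with all 6 libraries and lies between -0.06 and 0.20 without ISL1 replicate 3.

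The targeted genes were read first. PAX6 had 143, 99.5 and 166 CPM (counts per M counts of the library, after normalisation) in BFP replicates 1, 2 and 3, and 124, 94.9 and 318 CPM with ISL1. Transcripts of PAX6 were thus present in all 6 libraries, so the counts do not check the knockout label. PAX6 shares exon bases with ELP4 and PAUPAR on the opposite strand, and the strand setting of the counting is not given in the sources used here. ISL1 had 209, 133 and 236 CPM with BFP and 166, 126 and 356 CPM with the ISL1 vector, so the groups overlapped. The vector effect on ISL1 was 0.17 ± 0.35 (log2, SE, n = 3 against 3; adjusted p = 0.858 by the edgeR quasi-likelihood test), and it was -0.40 without ISL1 replicate 3 (adjusted p = 0.742). Transcript from the gene and from the vector cannot be told apart in these counts, so the ISL1 level does not show how much came from the vector.

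The sorted cells carried an endocrine profile with little of the hormones of mature islets. CHGA, a secretory granule protein of endocrine cells, was at 10300 to 26320 CPM in the 6 libraries. INS was at 637 to 2787 CPM and GCG at 15.7 to 339 CPM, beside means of 6418 and 43780 CPM in WT cells with BFP. GHRL was at 1933 to 15330 CPM, beside 79.1 CPM in those WT cells. Of the 16 beta cell genes listed, G6PC2 had 0 counts in 5 libraries and 4 in ISL1 replicate 3, and IAPP was at 0.213 to 1.89 CPM. Others were present at higher levels, such as the zinc transporter SLC30A8 at 35.4 to 63.7 CPM and ERO1B, an oxidase of the endoplasmic reticulum, at 87.5 to 169 CPM.

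With the ISL1 vector, 92 of the 25884 genes changed at an adjusted p under 0.05, which is 0.355% of those tested. Expression of 44 genes was higher (0.17%) and of 48 lower (0.185%), and 2658 genes had an unadjusted p under 0.05. The higher genes had a median log2 change of 1.86 (1.4 without ISL1 replicate 3) and included CNMD, RARRES2, VSIG1 and the homeobox gene HHEX. The lower genes had a median of -1.59 (-1.47 without ISL1 replicate 3) and included NKX6-1, the serotonin-pathway enzyme DDC, SYT13 and CBLN1. In all 92, the 3 ISL1 libraries lay outside the range of the 3 BFP libraries, as they did for 16% of all genes tested. The median over all genes was 0.11.

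The count depended on single libraries. Without ISL1 replicate 3 it was 55 (15 higher and 40 lower, 0.214% of 25691 genes), and 36 of the 92 were still called. All 92 kept their direction, which leaving out 1 library could hardly change, because their ISL1 and BFP libraries did not overlap. The count was 13 without BFP replicate 1, 19 without BFP replicate 3 and 17 without ISL1 replicate 1. It was 513 when PDX1-/- ISL1 replicate 4, which enters the shared estimate of spread, was left out. With the replicate number as a block, which pairs ISL1 and BFP libraries of one number, 578 genes were called (2.23%; 191 higher and 387 lower), all 92 among them. Numbers in the sample titles differ from those in the library names for 3 libraries outside PAX6-/-, and a block by title number called 91 genes (41 higher and 50 lower), 79 of the 92 among them. Values given below with the replicate block use the library-name numbers. By these numbers, PDX1-/- ISL1 replicate 4 is alone in its block. That block therefore also takes it out of the shared estimate of spread. The part of pairing in the 578 calls was not tested. A fit on the 6 libraries alone called 0 genes (edgeR; 1379 with an unadjusted p under 0.05). In each of the 6 fits that left out 1 PAX6-/- library, 10 of the 92 genes were called, named here after their values were seen: CNMD, NOX4, HHEX, NKAIN3 and BIRC3 among the higher, and IL22RA1, CHST2, NXPH4, AFF3 and DDC among the lower.

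**Figure D2:**
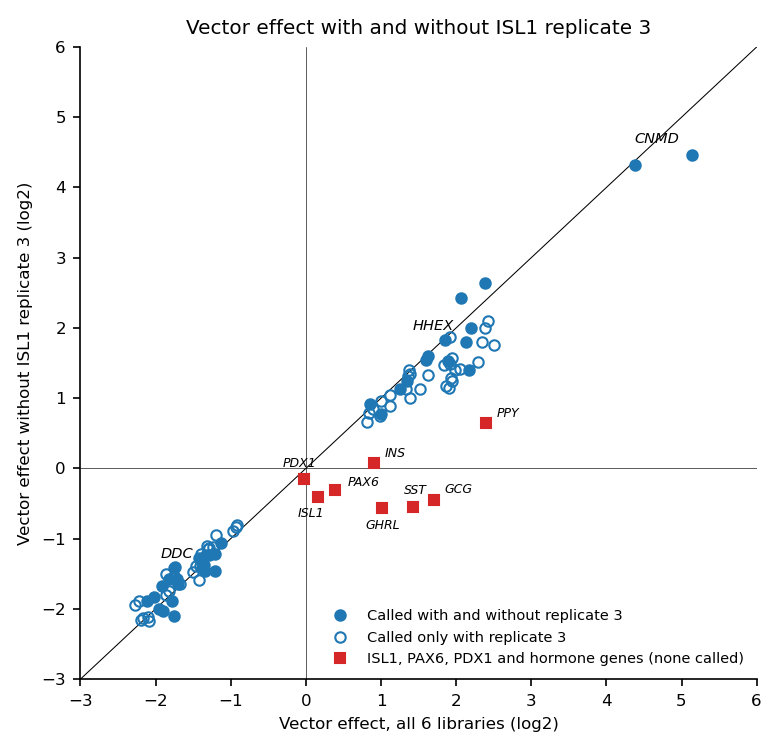
Vector effect (log2 ISL1 minus BFP) with all 6 libraries on the horizontal axis and without ISL1 replicate 3 on the vertical axis, one point per gene, with the line of equal values. The 92 called genes, whose ISL1 and BFP libraries do not overlap, lie on the same side of 0 both ways. The median of the higher genes is 1.86 with all 6 libraries and 1.4 without replicate 3, and that of the lower genes -1.59 and -1.47. ISL1, PAX6, GCG, SST and GHRL (red squares) change sign.

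The sequences before the start sites of 4 changed genes are printed because ISL1 binds motifs with a TAAT core. CNMD and BRINP3 were picked as a rise and a fall whose windows hold a motif, after the motifs had been searched, and HHEX and NKX6-1 as homeobox genes, so that these 4 say nothing of how common the motifs are. The windows are from RefSeq on GRCh38.p14 and hold the 250 bases before the annotated start, 5′ to 3′ on the gene's strand. Capitals mark CTAATT or CTAATG, searched on both strands.
CNMD (chr13:52739821-52740070, minus strand): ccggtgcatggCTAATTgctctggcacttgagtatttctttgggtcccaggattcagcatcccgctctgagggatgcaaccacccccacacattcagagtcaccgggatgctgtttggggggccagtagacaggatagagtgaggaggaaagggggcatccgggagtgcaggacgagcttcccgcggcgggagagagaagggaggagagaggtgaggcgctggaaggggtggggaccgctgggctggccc
HHEX (chr10:92689705-92689954, plus strand): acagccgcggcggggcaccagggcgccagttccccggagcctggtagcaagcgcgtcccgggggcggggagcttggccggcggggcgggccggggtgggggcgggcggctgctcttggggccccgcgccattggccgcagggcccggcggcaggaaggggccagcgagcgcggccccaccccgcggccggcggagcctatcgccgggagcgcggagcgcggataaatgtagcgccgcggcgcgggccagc
BRINP3 (chr1:190477865-190478114, minus strand): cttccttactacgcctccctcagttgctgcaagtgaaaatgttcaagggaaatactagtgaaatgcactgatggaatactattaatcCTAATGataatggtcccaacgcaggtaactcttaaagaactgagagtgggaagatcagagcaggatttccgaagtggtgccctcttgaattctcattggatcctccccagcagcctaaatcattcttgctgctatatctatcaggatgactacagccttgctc
NKX6-1 (chr4:84499293-84499542, minus strand): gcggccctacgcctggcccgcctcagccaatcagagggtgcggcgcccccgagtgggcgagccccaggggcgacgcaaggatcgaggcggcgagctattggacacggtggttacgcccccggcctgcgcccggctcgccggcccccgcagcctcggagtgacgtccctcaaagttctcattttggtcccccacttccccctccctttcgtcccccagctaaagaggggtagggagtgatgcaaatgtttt
CNMD, higher with the vector, holds 1 CTAATT, and BRINP3, lower with it, holds 1 CTAATG. HHEX and NKX6-1 hold neither of these motifs nor a TAAT in the stretch shown. A window of 300 bases, reaching 50 past the start, was found for 59 of the 92 genes. CTAATG or CTAATT was in 3 of 29 windows of higher genes (10.3%) and 4 of 30 windows of lower genes (13.3%), beside 9.1% of the 14750 windows of genes tested and 13.7% of all 27305 windows. TAAT alone, which the longer motifs contain, was in 44.8% of the higher, 46.7% of the lower and 38.7% of the tested windows. A match is a description of letters only.

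Several of the largest rises encode secreted or matrix proteins. CNMD, which encodes the cartilage glycoprotein chondromodulin, had 0.747, 0.482 and 0.492 CPM with BFP and 16.8, 8.41 and 35.3 CPM with ISL1. Its log2 change of 5.13 ± 0.58 (SE; adjusted p = 0.00108) was the largest rise among the named genes, and it was 4.46 without ISL1 replicate 3 (adjusted p = 0.00247). IGFBP7, a secreted protein that binds insulin-like growth factors, went from 10.0, 18.8 and 17.5 CPM to 63.0, 41.0 and 158 CPM. The change was 2.50 ± 0.46 (edgeR, adjusted p = 0.0215), or 1.75 without replicate 3 (adjusted p = 0.0677). IGFBP7 shares exon bases with POLR2B on the opposite strand. RARRES2, which encodes the chemoattractant chemerin, had 30.0, 31.7 and 30.1 CPM with BFP and 89.8, 72.2 and 252 CPM with ISL1. Here replicate 3 stood far above the other ISL1 libraries, and the change of 2.17 ± 0.34 (adjusted p = 0.0101) was 1.41 without it (adjusted p = 0.00809). FRZB, a secreted WNT antagonist, was the most abundant of the named rises, with 121, 106 and 110 CPM in BFP libraries and 418, 250 and 625 CPM in ISL1 libraries. Its change was 1.94 (adjusted p = 0.0444) and 1.58 without replicate 3 (adjusted p = 0.127).

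Among transcription factors, HHEX had the largest rise of the named genes. HHEX is a homeobox factor that delta cells need, and it had 5.91, 7.57 and 9.00 CPM with BFP against 26.2, 25.8 and 46.8 CPM with ISL1. The change was 2.13 ± 0.29 (adjusted p = 0.00487), was 1.79 without replicate 3 (adjusted p = 0.00963), and was called whichever PAX6-/- library was left out. SST, the delta cell hormone, did not follow: it had 10.9, 4.66 and 16.7 CPM with BFP and 8.57, 6.14 and 71.8 CPM with ISL1, and only ISL1 replicate 3 lay above the BFP range. RIPPLY3, a transcriptional corepressor, had 6.93 to 7.43 CPM with BFP and 16.4, 15.1 and 48.5 CPM with ISL1, a change of 1.90 (adjusted p = 0.0311) that was 1.14 without replicate 3 (adjusted p = 0.0796). SOX21-AS1, a long non-coding RNA antisense to SOX21, had 8.398 to 11.6 CPM with BFP and 21.1 to 68.0 CPM with ISL1, and rose by 1.99 (adjusted p = 0.0315; 0.0985 without replicate 3).

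Other named rises were NOX4, FOLR1, CXCR4, FZD8 and CCDC141. NOX4, an NADPH oxidase that produces hydrogen peroxide, had 6.56, 7.07 and 7.57 CPM with BFP and 31.1, 25.1 and 41.4 CPM with ISL1. The 2 groups were tight and far apart, and the change of 2.20 ± 0.29 (adjusted p = 0.00466) was 1.99 without replicate 3 (adjusted p = 0.00963). FOLR1, a folate receptor, rose by 2.34 from a mean of 1.12 to 5.69 CPM, and CXCR4, the receptor of the chemokine CXCL12, rose by 1.95 from 1.499 to 5.79 CPM. In both, the rise without replicate 3 was smaller (1.80 and 1.24) and did not pass (adjusted p = 0.127 and 0.0835). FZD8, a Frizzled receptor for WNT proteins, was low in every library, at 0.170 to 0.268 CPM with BFP and 0.727 to 1.72 CPM with ISL1; its change of 2.38 (adjusted p = 0.0209) was 2.00 without replicate 3 (adjusted p = 0.0648). CCDC141, a coiled-coil protein, was the one named rise in which ISL1 replicate 3 was the lowest ISL1 library, with 13.4, 9.20 and 3.73 CPM against 1.46 to 2.64 CPM with BFP. Its change was 2.06 (adjusted p = 0.0213) with all libraries and 2.43 without replicate 3 (adjusted p = 0.00339). CCDC141 shares a few exon bases with TTN.

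VSIG1, TFF2 and VSIG2 were also among the rises. VSIG1, a membrane protein of gastric epithelium, had 7.49, 7.43 and 9.17 CPM with BFP and 40.0, 28.8 and 60.6 CPM with ISL1, a change of 2.42 ± 0.46 (adjusted p = 0.0263). TFF2, a trefoil peptide of gastric mucus, had 2.53, 1.66 and 1.32 CPM with BFP and 6.67, 3.53 and 9.54 CPM with ISL1, and rose by 1.84 (adjusted p = 0.0401). VSIG2, a relative of VSIG1, rose by 1.86 from a mean of 1.48 to 5.39 CPM. Without replicate 3 the adjusted p of these 3 genes was 0.0757, 0.123 and 0.14. In the list of 14 intestine and stomach genes, 2 of the 12 tested rose, and the median change was 0.82 (0.79 without replicate 3) beside 0.11 (0.01) for all genes. With the replicate block, SOX2, TCN1, TFF1 and TFF3 also passed as higher, and VIL1, an actin-binding protein of the intestinal brush border, as lower (log2 change -0.86 in that fit). CDX2, the intestinal homeobox factor, had 69.9 to 107 CPM with BFP and 74.7, 96.2 and 18.1 CPM with ISL1. MUC2 and MUC5AC were at 3 counts or fewer in all 6 libraries.

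**Figure D3:**
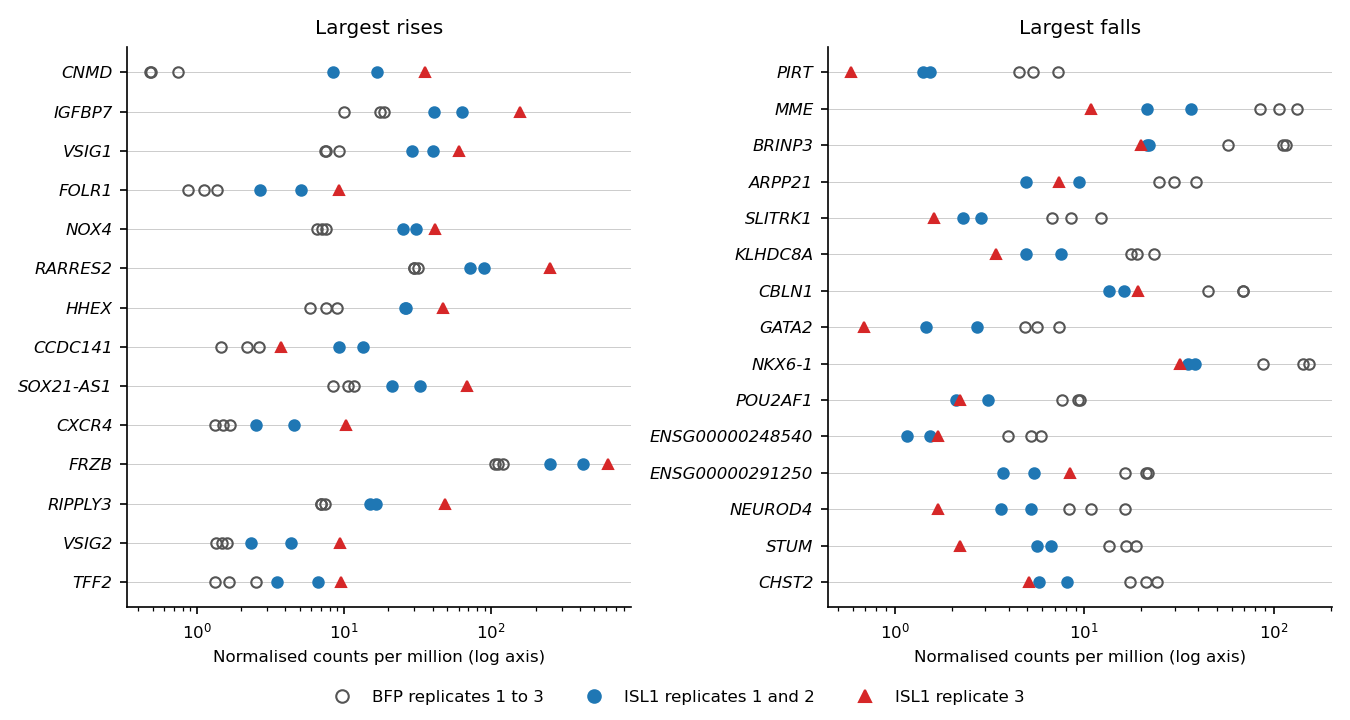
Normalised CPM (log axis) of the genes with the largest rises (left) and falls (right), with open circles for the 3 BFP libraries, blue circles for ISL1 replicates 1 and 2 and red triangles for ISL1 replicate 3. Only genes whose ISL1 and BFP points do not overlap were picked for drawing. Replicate 3 is the most extreme ISL1 library in most rises, such as RARRES2 at 252 CPM, and the least extreme in CCDC141 at 3.73 CPM.

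Of the genes of serotonin cells, DDC fell with the ISL1 vector. It encodes the decarboxylase that makes serotonin and dopamine. DDC had 436, 343 and 497 CPM with BFP and 149, 161 and 195 CPM with ISL1. The groups were well separated and replicate 3 lay close to the other ISL1 libraries. The change was -1.34 ± 0.19 (adjusted p = 0.00487), was -1.46 without replicate 3 (adjusted p = 0.00747), and was called in all 6 fits that left out a library. All 9 genes of the enterochromaffin list, the serotonin cells of the gut that also form in stem cell-derived islets, had a log2 change below 0, with a median of -1.34 (-1.31 without replicate 3), but only DDC passed. Over all genes tested, 14847 of 25884 were above 0. TPH1, which catalyses the first step of serotonin synthesis, had 148, 94.1 and 145 CPM with BFP and 44.1, 50.9 and 47.1 CPM with ISL1. The ISL1 libraries of TPH1 lay at about the same level and below all BFP libraries, with a change of -1.44 ± 0.46 that did not pass (adjusted p = 0.249) unless the replicate block was used (adjusted p = 0.00392).

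Other members of that list did not pass with all libraries. LMX1A, a LIM homeodomain factor of these cells, had 209, 143 and 161 CPM with BFP and 54.2, 73.0 and 34.0 CPM with ISL1 (change -1.67, adjusted p = 0.0788; 0.00236 with the block). SLC18A1, which loads serotonin into vesicles, had 121 to 245 CPM with BFP and 79.5, 73.0 and 77.2 CPM with ISL1 (change -1.30, adjusted p = 0.26; 0.00536 with the block). FEV, a transcription factor of serotonin neurons and endocrine progenitors, went from 907, 609 and 1075 CPM to 270, 277 and 920 CPM, so that only ISL1 replicates 1 and 2 were low. Its change was -0.82 with all libraries (adjusted p = 0.47) and -1.66 without replicate 3 (adjusted p = 0.0177). The list's summed level was 1774 to 2811 CPM with BFP, and 968, 974 and 1639 CPM with ISL1.

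Among transcription regulators, NKX6-1, NEUROD4, GATA2 and POU2AF1 fell. NKX6-1, a homeobox factor of pancreatic progenitors and beta cells, had 153, 87.8 and 143 CPM with BFP and 35.1, 38.5 and 32.0 CPM with ISL1. The 3 ISL1 libraries agreed closely. The change was -1.86 ± 0.34 (edgeR, adjusted p = 0.0209) and -1.80 without replicate 3 (adjusted p = 0.0663). It was the single call among 16 beta cell genes, whose median change was -0.24. PAX4, another beta cell factor, had 168 to 241 CPM with BFP and 111 to 135 CPM with ISL1, a change of -0.75 (adjusted p = 0.307). NEUROD4, a bHLH factor of neurons and endocrine progenitors, had 16.4, 8.34 and 10.9 CPM with BFP and 5.26, 3.64 and 1.70 CPM with ISL1, and fell by 1.75 on the log2 scale (adjusted p = 0.0363). GATA2, a zinc-finger factor, fell by 1.87 on the log2 scale, from 4.90 to 7.39 CPM in BFP libraries to 0.692 to 2.72 CPM in ISL1 libraries (adjusted p = 0.0488). Without replicate 3 the latter 2 did not pass (adjusted p = 0.0757 and 0.0985), and GATA2 shares exon bases with GATA2-AS1. POU2AF1, a coactivator of OCT factors, fell by 1.83 on the log2 scale, from a mean of 8.79 to 2.47 CPM (adjusted p = 0.0387; 0.103 without replicate 3).

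SYT13, an atypical synaptotagmin of endocrine cells, fell in level with the vector: it had 160, 113 and 129 CPM with BFP and 50.5, 64.3 and 58.6 CPM with ISL1, a change of -1.21 ± 0.19 (adjusted p = 0.00925) that was -1.22 without replicate 3 (adjusted p = 0.0179). It was the one call among 18 exocytosis genes tested. Of these, 16 were below 0, with a median of -0.78 (-0.75 without replicate 3), beside 14847 of 25884 above 0 over all genes tested. With the replicate block, CPLX1, STX1A, SV2A and SYT11 were among those that also passed as lower. STX1A, the plasma membrane SNARE of secretory vesicles, had 223, 171 and 233 CPM with BFP and 109, 119 and 129 CPM with ISL1, a change of -0.81 (adjusted p = 0.199; 0.0219 with the block). SYT4 went the other way in 2 ISL1 libraries, with 291 and 220 CPM in ISL1 replicates 1 and 2 and 133 CPM in replicate 3, against 101 to 153 CPM with BFP.

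CBLN1, a secreted organiser of synapses, had 68.8, 45.0 and 68.9 CPM with BFP and 13.5, 16.2 and 19.1 CPM with ISL1. Its change was -1.90 ± 0.28 (adjusted p = 0.0054) and -2.04 without replicate 3 (adjusted p = 0.0152). SLITRK1, a membrane protein of neurons, had 12.3, 6.75 and 8.49 CPM with BFP and 2.29, 2.85 and 1.62 CPM with ISL1, a change of -2.02 (adjusted p = 0.0054; 0.0247 without replicate 3). BRINP3, a protein of the nervous system induced by BMP and retinoic acid, had 112, 57.6 and 115 CPM with BFP and 22.01, 21.5 and 19.9 CPM with ISL1. The ISL1 libraries of BRINP3 were nearly equal, and the change was -2.17 (adjusted p = 0.0348; -2.13 and 0.0985 without replicate 3). PIRT, a regulator of TRP channels, had the largest fall among the named genes, from 4.50 to 7.24 CPM down to 0.587 to 1.53 CPM (change -2.27, adjusted p = 0.0241; 0.0748 without replicate 3). ARPP21, a cAMP-regulated phosphoprotein, had 24.7 to 39.0 CPM with BFP and 4.95 to 9.36 CPM with ISL1 (change -2.11, adjusted p = 0.0209; 0.0602 without replicate 3). UNC5D, a netrin receptor, was the single call among 29 axon guidance genes, with a change of -1.31 (adjusted p = 0.0367; 0.0985 without replicate 3).

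Enzymes and other proteins made up the rest of the named falls. MME, which encodes the peptidase neprilysin, had 132, 84.6 and 106 CPM with BFP and 21.6, 36.6 and 10.8 CPM with ISL1, a change of -2.22 (adjusted p = 0.0209; -1.89 and 0.0521 without replicate 3). CHST2, a sulfotransferase, had 17.5 to 24.1 CPM with BFP and 5.10 to 8.07 CPM with ISL1. Its change of -1.73 ± 0.25 (adjusted p = 0.00494) was called whichever PAX6-/- library was left out. KLHDC8A, a kelch-domain protein, changed by -1.91 (adjusted p = 0.0054) and STUM, a membrane protein, by -1.75 (adjusted p = 0.0184); both passed without replicate 3 as well (adjusted p = 0.0177 for each). The unnamed genes ENSG00000248540 and ENSG00000291250 changed by -1.78 and -1.75 (adjusted p = 0.0163 and 0.0241).

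None of the 5 islet hormone genes passed, and the sign of GCG, SST and GHRL turned without ISL1 replicate 3. GHRL, which encodes ghrelin, had 3481, 2519 and 3773 CPM with BFP and 2481, 1933 and 15330 CPM with ISL1. Replicates 1 and 2 were below the BFP range and replicate 3 was far above it, so the change of 1.02 ± 0.53 (adjusted p = 0.517) became -0.56 ± 0.27 without replicate 3 (adjusted p = 0.482). GCG, which encodes glucagon, had 29.1, 15.7 and 77.9 CPM with BFP and 32.0, 28.1 and 339 CPM with ISL1, a change of 1.70 that became -0.44 (adjusted p = 0.496 and 0.904). INS, the insulin gene, had 938, 803 and 637 CPM with BFP and 700, 970 and 2787 CPM with ISL1, a change of 0.91 that became 0.08 (adjusted p = 0.675 and 0.991). SST changed by 1.42, or -0.55 without replicate 3 (adjusted p = 0.522 and 0.848). PPY had 1, 2 and 5 counts with BFP and 9, 0 and 33 counts with ISL1. Of 11 gut and stomach hormone genes tested none passed, and with the replicate block NTS and PENK were called higher and SCT lower. PENK, the enkephalin precursor, had 6.64, 6.34 and 5.39 CPM with BFP and 20.1, 12.2 and 21.98 CPM with ISL1 (change 1.56, adjusted p = 0.11; 0.0049 with the block). PDX1, the pancreatic homeobox factor, had 63.3 to 81.4 CPM with BFP and 67.0 to 85.6 CPM with ISL1, and the change was -0.03 ± 0.21 (adjusted p = 0.961).

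Over all 30 gene lists, 384 of 399 genes were tested, 8 rose and 4 fell, and 21 lists held no call; over all genes tested 0.17% rose and 0.185% fell. The lists were chosen with earlier results of these data known, so these counts do not test whether the lists hold more calls than other genes. Besides the lists above, the calls were IGFBP6 and IGFBP7 among 11 genes of insulin-like growth factor binding (list median 0.09), FRZB and FZD8 among 25 WNT pathway genes (-0.04), CNMD among 15 cartilage and tendon genes (0.10) and HHEX among 9 delta cell genes (0.25). IGFBP6, a binding protein with a preference for IGF2, had 52.5, 78.8 and 55.7 CPM with BFP and 171, 141 and 264 CPM with ISL1 (change 1.62, adjusted p = 0.0198; 0.0553 without replicate 3). The other cartilage genes did not pass, and this list's summed level was 799, 1554 and 887 CPM with BFP and 925, 1367 and 169 CPM with ISL1. Over all genes tested, 14847 of 25884 had a log2 change above 0 (13173 without replicate 3). Of 16 cell cycle genes 15 were above 0, with a median of 0.43 (16 of 16 and 0.60 without replicate 3), and none passed. CCNB2 was called higher with the replicate block (edgeR, adjusted p = 0.0367). Of 16 stress response genes 3 were above 0, and none passed; TRIB3 was called lower with the replicate block (adjusted p = 0.0367). Of 10 islet genes tied to PAX6, the hormone-processing enzymes PCSK1 (change -1.32, adjusted p = 0.304) and PCSK2 (-0.73, 0.186) were called lower only with the replicate block.

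Marker sums of other cell types are given beside these lists, and their part in the changes was not tested. The 13 mesenchyme genes summed to 208, 958 and 952 CPM with BFP and 198, 931 and 230 CPM with ISL1, and the 7 liver genes to 5252 to 7182 CPM and 5539 to 6899 CPM. The 7 endothelial genes summed to 58.1 to 70.7 CPM and 48.9 to 71.7 CPM, and the 10 acinar genes to 25.1 to 35.2 CPM and 38.3 to 142.5 CPM, with PNLIP, AMY2A and REG1A at 3 counts or fewer in all 6 libraries. The 7 pluripotent cell genes summed to 52.95, 44.4 and 52.1 CPM with BFP and 116, 91.0 and 71.0 CPM with ISL1, and none of the 5 tested passed. These sums did not overlap, which was not particular to them. Sums of the acinar, delta cell, enterochromaffin, gut hormone, insulin release channel, exocytosis, IGF binding and WNT lists did not overlap either. Among single genes tested, 16% did not overlap. PRDM14 was the largest part of the pluripotent cell sum, with 1889, 1357 and 1762 counts with BFP and 4359, 4052 and 2505 counts with ISL1. POU5F1 had 0 to 18 counts and NANOG 0 to 9 counts in the 6 libraries. The alpha and epsilon cell sums were raised in ISL1 replicate 3 alone, at 11480 and 15880 CPM against at most 5188 and 4661 CPM in the other 5 libraries.

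**Figure D4:**
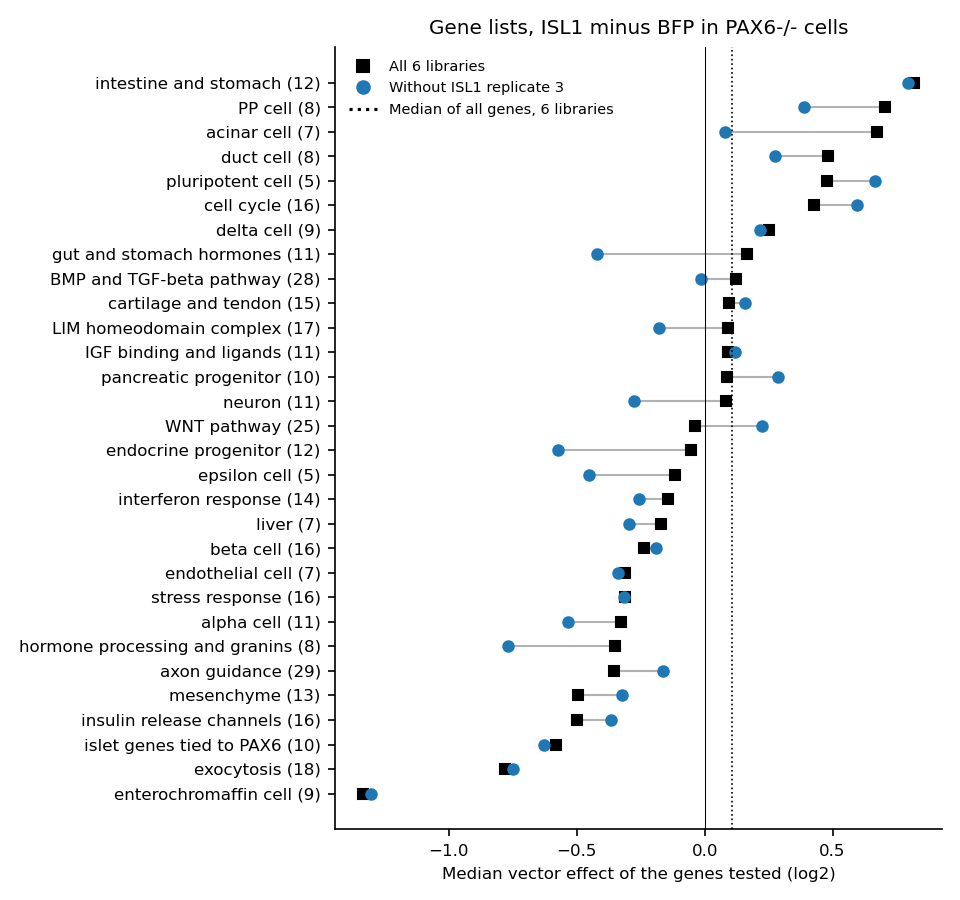
Median vector effect (log2) of each gene list, with the number of genes tested in brackets, with all 6 libraries (black squares) and without ISL1 replicate 3 (blue circles); the dotted line is the median of all genes, 0.11. The enterochromaffin and exocytosis medians stay at -1.34 to -1.31 and -0.78 to -0.75, while the hormone-processing list moves from -0.35 to -0.77.

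The vector effect was then compared with that in ISL1-/- and WT cells, which share no library with it. The tests come from the same fit and share each gene's estimate of spread, so calls in different genotypes are not independent. In ISL1-/- cells 99 genes were called (0.382%), and 39 were called in both genotypes in the same direction: 42.4% of the PAX6-/- calls and 39.4% of the ISL1-/- calls, 18 of them higher and 21 lower. Of the 92 genes, 91 had the same sign in ISL1-/- cells and 84 in WT cells (44 of 44 higher genes and 40 of 48 lower genes). Over all genes, 53.5% were above 0 in ISL1-/- cells and 50.3% in WT cells. The lower genes had a median of -1.59 in PAX6-/-, -1.14 in ISL1-/- and -0.35 in WT cells. The higher genes had medians of 1.86, 1.34 and 1.34. These genes were picked by their test in PAX6-/- cells, which favours larger values there, so the medians do not rank the genotypes. A direct test of the difference from WT called 0 genes (0%; edgeR, 916 with an unadjusted p under 0.05; DESeq2 8 and limma voom 136). WT cells had only 4 libraries over both vectors, and their own vector effect called 7 genes. The 0 calls therefore do not show that the effects are equal.

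Single genes show the range. HHEX rose by 2.13 in PAX6-/-, 2.64 in ISL1-/- and 1.84 in WT cells (adjusted p = 0.00487, 0.000346 and 0.0854). NOX4 rose by 2.20, 3.79 and 2.73, and passed in all 3 genotypes. DDC changed by -1.34, -1.04 and -0.90 (adjusted p = 0.00487, 0.0176 and 0.446), and SYT13 by -1.21, -1.34 and -0.01 (adjusted p = 0.00925, 0.0032 and 1.0). No difference between genotypes passed for these 4 genes, which does not show that their effects are equal. CNMD rose by 5.13 in PAX6-/- and 5.27 in WT cells (adjusted p = 0.00108 and 0.00901), and its change in ISL1-/- cells was 2.18 (adjusted p = 0.0796).

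The test of PAX6-/- against ISL1-/- cells called 1 gene (0.00386%), SLC24A4, a potassium-dependent sodium and calcium exchanger. SLC24A4 had 1.93, 0.821 and 0.549 CPM with BFP and 1.36, 1.02 and 1.03 CPM with ISL1 in PAX6-/- cells, a change of 0.05 ± 0.36. In ISL1-/- cells it went from a mean of 0.2997 ± 0.0576 to 7.02 ± 0.48 CPM (SD, n = 3), a change of 4.54 ± 0.41 (SE). The difference of the effects was -4.49 ± 0.54 (edgeR, adjusted p = 0.00422). WT cells with BFP had 11.8 ± 0.37 CPM (SD, n = 2).

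**Figure D5:**
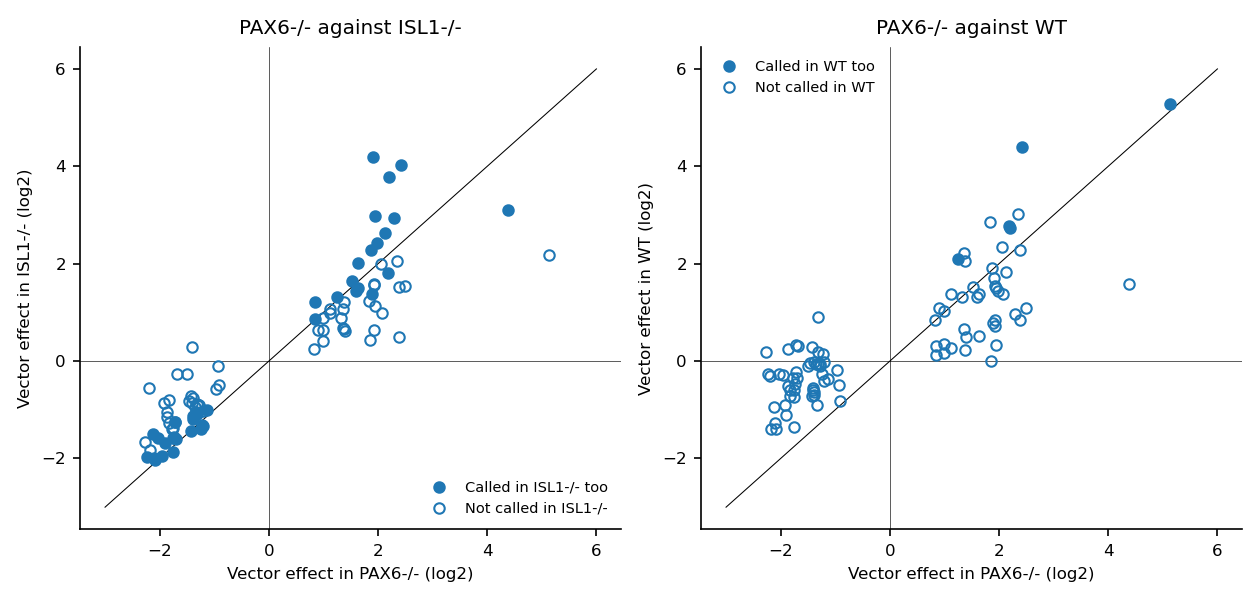
Vector effect (log2) of the 92 genes called in PAX6-/- cells on the horizontal axis and in ISL1-/- (left) or WT cells (right) on the vertical axis, filled where the gene was called there too (39 and 5 genes), with the line of equal values. On the left 91 points share their sign. On the right the lower genes lie nearer to 0, with a median of -0.35. All were picked by their test in PAX6-/- cells, which favours larger values on the horizontal axis.

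For some of these genes the PAX6-/- BFP libraries also differed from WT cells with BFP. That comparison shares the BFP libraries with the vector effect, so the 2 values are only set side by side. HHEX was -1.85 in PAX6-/- against WT cells with BFP (adjusted p = 0.00243) and 2.13 with the vector. SYT13 was 1.43 (adjusted p = 0.00126) and -1.21, and CBLN1 was 1.39 (adjusted p = 0.0175) and -1.90. VSIG1 had the same sign in both, at 2.40 (adjusted p = 0.0177) and 2.42. GCG was -10.06 (adjusted p = 0.000151) and 1.70, the latter not past the test.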

How the data were processed

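RNA was sequenced in 21 libraries of 8 groups, and the comparison uses 6. The authors deposited raw read counts per gene, in the column layout of featureCounts per the file headers. STAR 2.7.11b, featureCounts 2.1.1 and build GRCh38 are named in the submitters' processing notes; strand setting and annotation release are not given in the sources used here. Of 62700 genes 62699 were used, because line breaks split the values of ANK2 over 3 lines. Libraries held 36.8 to 60.2 M counts, and a count of 0 allows up to 3 counts (counting error only).

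Counts were scaled by TMM and filtered by filterByExpr (minimum count 10, total 15). The edgeR 4.0.16 fit (R 4.3.3, quasi-likelihood F test) used all 21 libraries with a coefficient per group. It was first run on simulated counts with a smaller spread than these data and no library that stood apart. That run therefore does not show how the fit performs here. P-values were Benjamini-Hochberg adjusted over 25884 genes, with a threshold of 0.05. Fold changes are log2 with a prior count of 0.125; differences between libraries are on log2 CPM with a prior count of 2. Same-numbered ISL1 and BFP libraries deviated together (r = 0.155, 0.391 and 0.333), and the other pairs lay at -0.304 to 0.080. Deviations within a group sum to 0, so these values depend on each other. Whether the numbers pair the samples was not tested, and the main fit used no block. The number is that in the library name. Alternatives were other scaling and filters, DESeq2 1.42.0, limma 3.58.1 voom with quality weights, blocks, leaving out libraries and, chosen after seeing the data, an offset for exon length. Coordinates of sequences are from RefSeq GRCh38.p14.

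Named genes were ISL1, PAX6, PDX1 and 5 hormone genes, the 15 largest rises and 15 largest falls among called genes with at least 5 CPM and no overlap, called members of 30 gene lists, and genes called in a difference between genotypes. Members and lists were chosen with earlier results of these data known. The 3 called genes on chromosome Y are not described, and 1 item is not reported here.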

Additional observations from a re-analysis of the deposited data

Results flagged for a closer look

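SLC24A4 is listed because the effect of the ISL1 vector differed between 2 genotypes in a test of the difference itself: the effect in PAX6-/- cells minus that in ISL1-/- cells was -4.49 ± 0.54 (log2, SE; edgeR, adjusted p = 0.00422, n = 3 per group). All 3 ISL1-/- libraries with the vector rose from a mean of 0.2997 to 7.02 CPM, while the PAX6-/- groups, at 0.549 to 1.93 and 1.02 to 1.36 CPM, overlapped.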

How the results depend on the processing

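All 92 genes called in PAX6-/- cells kept their direction in each alternative that tested them. Their ISL1 and BFP libraries did not overlap, so leaving out 1 PAX6-/- library could hardly turn it. The number of calls was 463 with DESeq2 (174 higher), 2579 with limma voom and quality weights (1068 higher), 578 with the replicate block, 513 without PDX1-/- ISL1 replicate 4 in the model, 1357 without that library and PAX6-/- ISL1 replicate 3, and 1230 with the block and without the latter. It was 13 to 126 when 1 PAX6-/- library was left out, 0 in fits of the 6 libraries alone without or with the block (edgeR; 1379 and 1720 genes had an unadjusted p under 0.05), and 88 with an exon length offset (34 higher), chosen after seeing the data. The difference from WT cells gave 8 genes with DESeq2 and 136 with voom. The difference from ISL1-/- cells gave 3 with DESeq2, 13 with voom, 2 with the block, without a low-count filter, without PDX1-/- ISL1 replicate 4 or with only the groups compared, and 1 to 2 when 1 PAX6-/- library was left out. The cause was not tested. The replicate block by library-name number changed no call among the 44 genes named by rule; by title number, with 91 calls, SOX21-AS1, RIPPLY3, VSIG2 and POU2AF1 did not pass.

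Signs of uncalled genes turned. When 1 PAX6-/- library was left out, values ran from -0.40 (without ISL1 replicate 3) to 0.44 for ISL1, which was -0.04 without BFP replicate 2, and from -0.31 to 0.70 for PAX6, -0.44 to 2.57 for GCG, -0.55 to 1.90 for SST and -0.56 to 1.45 for GHRL, the lowest always without ISL1 replicate 3. For PDX1 they ran from -0.153 to 0.034 and for SLC24A4 from -0.27 to 0.73. Without both ISL1 replicate 3 and PDX1-/- ISL1 replicate 4, ISL1, PAX6, GCG, SST and GHRL were at -0.41, -0.32, -0.45, -0.56 and -0.57. Without replicate 3 they were at -0.30, -0.12, -0.014, -0.34 and -0.50 with the block (INS -0.042), and at -0.40, -0.42, -0.45, -0.73 and -0.59 with the length offset (INS -0.11). With voom they were at -0.37, -0.27, -0.17, -0.42 and -0.50 (INS -0.006). PDX1 was 0.034 with at least 1 CPM in 3 libraries. At this depth 3 counts are 0.053 to 0.065 CPM in the 6 libraries.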
